A study of Mus musculus with 56 samples.

Results

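Ductular and progenitor keratin genes were followed across the livers of 56 mice. The set holds the keratins Krt7, Krt19, Krt8, Krt18 and Krt23, the transcription factor Sox9 and the surface proteins Epcam and Cd24a. Its members were taken by gene symbol from a table of read counts with 21935 genes, and all 8 were measured well enough to enter the test, with 14105 genes in all. Membership was set by gene symbol, with no threshold on a measured value.

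The study asked how 2 peptide drugs, zalfermin (built on the hormone FGF21 to last longer in blood) and semaglutide (an agonist of the GLP-1 receptor), act on the liver of mice with diet-induced steatohepatitis (MASH), alone and combined. Male C57BL/6J mice, 5 to 6 weeks old on arrival, ate chow or the AMLN diet (high in fat, cholesterol and fructose) for 36 weeks, and were then dosed under the skin every day for 8 weeks. Liver mRNA was sequenced from 8 mice in each of 7 groups. Chow mice were given vehicle; the other 6 groups were on the AMLN diet (DIO-MASH) and were given vehicle, zalfermin at 0.05 mg/kg (zalfermin low) or 0.2 mg/kg (zalfermin high), semaglutide at 3 µg/kg (semaglutide low) or 120 µg/kg (semaglutide high), or both compounds in separate injections, at the low doses per the study's methods, although the deposit's own description names the high doses (combination). DIO-MASH mice entered only with steatosis and fibrosis on a liver biopsy taken before dosing and were spread over the groups by collagen staining and body weight, so the chow group differs from them in diet and in selection.

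Keratins are the intermediate filaments of epithelial cells, and each filament pairs a type I with a type II keratin. Hepatocytes make mainly Krt8 (type II) and Krt18 (type I), which steady the cell under mechanical and toxic stress and can form aggregates called Mallory-Denk bodies in steatohepatitis. Cells of the bile ducts make the same pair and add Krt7 (type II) and Krt19 (type I). When the liver is injured for a long time, duct-like cells spread from the portal tracts, a ductular reaction. These cells carry Sox9, a transcription factor of the bile duct lineage, Epcam, an epithelial adhesion protein, and Cd24a, a small sialoglycoprotein anchored in the membrane. Krt23 is a type I keratin that can be induced in stressed hepatocytes.

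The keratin members lie in both keratin clusters of the mouse genome. On GRCm38 (GENCODE vM21 coordinates), Krt7 spans chr15:101411043-101430313 on the plus strand, Krt8 spans chr15:101996698-102004482 on the minus strand and Krt18 spans chr15:102028180-102032027 on the plus strand. Krt8 and Krt18 therefore stand head to head, with 23.7 kb and 0 annotated genes between them. The type I members Krt23 (chr11:99477974-99493137, minus strand) and Krt19 (chr11:100140810-100148665, minus strand) share chromosome 11 with Sox9 (chr11:112782224-112787760, plus strand). Epcam lies at chr17:87635979-87651129 and Cd24a at chr10:43578284-43584265, both on the plus strand. Exons of Krt7 overlap an antisense gene (Gm671) and exons of Krt8 overlap Gm36026 on the opposite strand. Neither of these is in the count table, and the strand setting of the counting is not given in the sources used here.

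RefSeq promoter windows (GRCm38.p6, 250 bases before to 50 bases after the start) were matched for 5 of the 8 members. Krt8 and Krt18 are shown because their levels moved together below, and Krt23 and Epcam because they did not follow that pair. Each is written 5′ to 3′ on the strand of its gene, from the first base of the window to the base before any annotated exon of the gene. The positions are chr15:102004483-102004592 (minus strand, 110 bases) for Krt8, chr15:102027966-102028179 (plus strand, 214 bases) for Krt18, chr11:99493138-99493370 (minus strand, 233 bases) for Krt23 and chr17:87635729-87635978 (plus strand, 250 bases) for Epcam. Capitals mark a GC box.
Krt8: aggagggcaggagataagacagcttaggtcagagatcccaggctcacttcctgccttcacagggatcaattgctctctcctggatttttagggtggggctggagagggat
Krt18: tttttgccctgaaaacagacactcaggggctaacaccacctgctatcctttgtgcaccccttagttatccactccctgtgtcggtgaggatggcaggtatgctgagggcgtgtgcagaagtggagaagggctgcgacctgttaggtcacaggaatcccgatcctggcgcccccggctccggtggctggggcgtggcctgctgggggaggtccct
Krt23: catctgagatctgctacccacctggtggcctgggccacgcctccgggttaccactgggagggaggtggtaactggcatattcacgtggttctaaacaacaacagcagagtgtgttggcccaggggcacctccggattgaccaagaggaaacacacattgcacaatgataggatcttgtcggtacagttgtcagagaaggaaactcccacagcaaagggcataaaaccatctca
Epcam: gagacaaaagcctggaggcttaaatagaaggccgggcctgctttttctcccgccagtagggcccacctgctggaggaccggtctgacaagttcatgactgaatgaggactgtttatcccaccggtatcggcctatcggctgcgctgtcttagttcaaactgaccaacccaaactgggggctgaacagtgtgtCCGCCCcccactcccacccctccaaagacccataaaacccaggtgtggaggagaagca

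Each 300-base window was searched on both strands for the TATA box TATAAA, the CCAAT box CCAAT, the GC box GGGCGG, the AP-1 motif TGANTCA and the TEAD motif GGAATG. Of 27025 promoters of the same length, 14.2%, 37.9%, 35.9%, 7.93% and 14.6% held them, in that order. Krt7, which is not printed, held 4 GC boxes, and Epcam held 1, on the opposite strand from 58 to 53 bases before the start. Krt8 held TATAAA from 1 base before the start to the fifth base after it, beyond the printed stretch, overlapping its own reverse. Krt18 and Krt23 held none of the 5 motifs in this window. GC content was 66.3% for Krt7, 61.3% for Krt18, 58% for Krt8, 57% for Epcam and 53% for Krt23, against a median of 52.7% over all promoters.

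Libraries held 5228187 to 20885786 reads, with a median of 12206788. Levels are given as CPM (a gene's reads as a share of the library, per 1e+06 reads), scaled by the TMM-normalised library size. The hepatocyte markers Alb, Apoa1, Ttr, Hnf4a, Cps1, Tat and Cyp2e1 summed to 62239 CPM or more in every library. A library from a chow mouse (mouse 8) stood apart. Its stomach, gut and gallbladder markers summed to 3318 CPM against a chow median of 40.7, with Tff2 at 1387 CPM and Vil1 at 272 CPM among them. Not all markers of that list were high in it, and Gkn1, Gkn2 and Muc5ac were at 0 CPM. The intestinal keratin Krt20, which is not in that sum, was at 259 CPM. In the other chow mice Krt20 was at 0 and Tff2 reached at most 0.270 CPM. This library held 155.6 CPM of Krt19 and 90.1 CPM of Epcam, above every other mouse of the study. Differences of the members from the chow group are therefore given with and without it. Most counts and differences of other genes in chow are given without it. A library of the semaglutide low group (mouse 6) was the lowest of its group for all 8 members. The study excluded 1 library of that group without marking it in the labels, so results of that group are given with and without mouse 6 where that changed a call.

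In liver RNA Krt8 and Krt18 sat far above the other members. Per kb of exon, the median level in vehicle-dosed DIO-MASH mice was 283.1 CPM for Krt18 and 244.8 CPM for Krt8. The next gene, Cd24a, was at 9.27 CPM per kb, and its highest mouse stayed below the lowest mouse of Krt8. Epcam followed at 6.71 CPM per kb, Krt19 at 6.26, Krt23 at 4.25, Sox9 at 2.93 and Krt7 at 1.12. Neighbours in that order overlapped between mice, except at the step from Krt8 to Cd24a. Spread between mice differed as well. The fitted variation between mice of a group (biological coefficient of variation) was 26.4% for Krt8 and 27.7% for Krt18, close to the common value of 22.6%. It was 40.5% for Sox9, 41.3% for Krt23, 60.3% for Cd24a, 61.0% for Krt7, 82.5% for Epcam and 90.8% for Krt19. All of these values, and those of Krt8 and Krt18, include chow mouse 8.

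**Figure D1:**
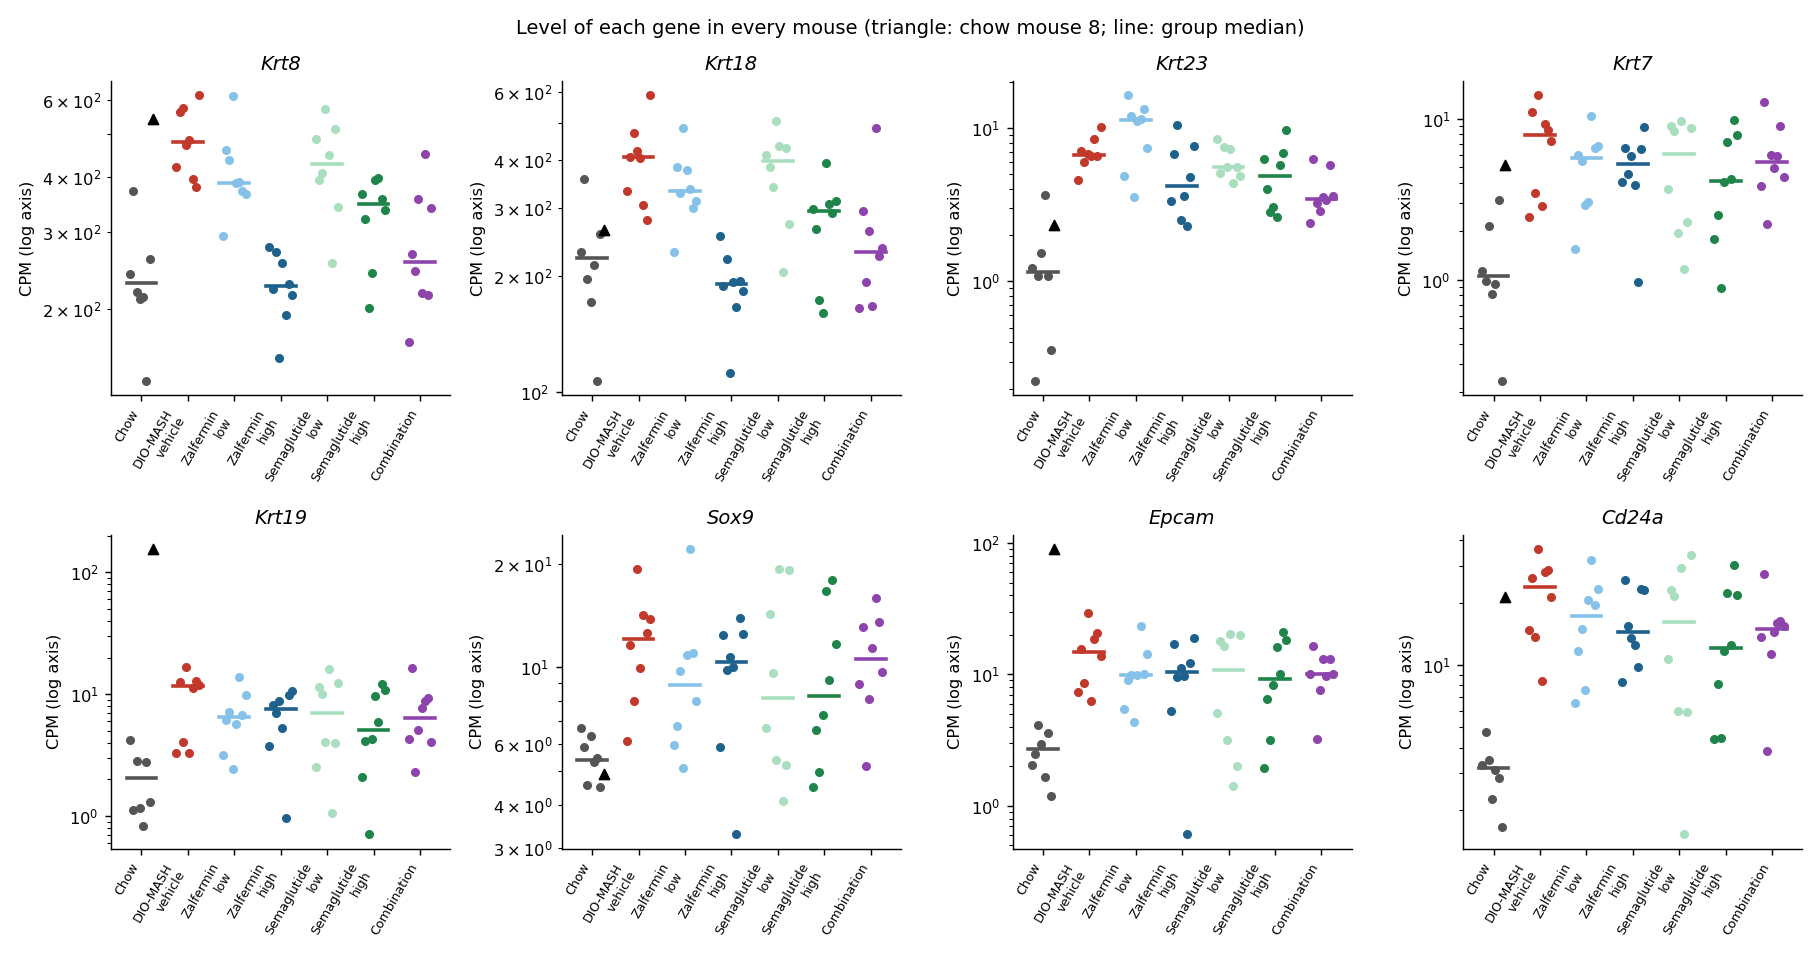
Level of each of the 8 genes in CPM (log axis) for every mouse of the 7 groups, with a line at the group median and a triangle for chow mouse 8. Krt8 and Krt18 lie lower in zalfermin high (medians 225 and 191 CPM) than in DIO-MASH vehicle (479 and 407 CPM), while Krt19 and Epcam of chow mouse 8 (155.6 and 90.1 CPM) stand above all other mice.

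The first comparison asked how the members differ between healthy and diseased liver. All 8 were lower in chow than in DIO-MASH vehicle once chow mouse 8 was left out, with log2 differences from -0.87 for Krt18 to -2.85 for Cd24a. With all 56 mice, 6 of the 8 passed the threshold, all lower in chow (edgeR quasi-likelihood test, adjusted p under 0.05), where 55.4% of all genes tested passed in either direction. Without chow mouse 8 it was 8 of 8, where 56.3% of all genes passed and 30.5% were lower. The median log2 difference was -2.33 over the members and -0.02 over all genes.

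Krt8, the type II keratin of hepatocytes, ranged from 137 to 372 CPM in the other 7 chow mice, with a median of 218, and was at 542 CPM in chow mouse 8. In DIO-MASH vehicle it ranged from 380 to 614 CPM, with a median of 479. Without mouse 8, no chow mouse reached the lowest vehicle mouse. Its log2 difference was -1.05 ± 0.18 (SE; edgeR adjusted p = 2.82e-06) without that mouse and -0.83 with it.

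Krt18, its type I partner, ranged from 107 to 358 CPM in chow, with a median of 222 over all 8 mice, and was at 264 CPM in chow mouse 8. In vehicle it ranged from 279 to 588 CPM around a median of 407. The groups overlapped, and the log2 difference was -0.87 ± 0.21 (edgeR adjusted p = 4.44e-04) without mouse 8 and -0.84 with it. Krt18 thus did not share the high value that Krt8 had in chow mouse 8.

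Krt23, the inducible type I keratin, lay between 0.226 and 3.64 CPM in chow and between 4.56 and 10.2 CPM in vehicle. The groups did not overlap even with all 8 chow mice. Its log2 difference without mouse 8 was -2.42 ± 0.37 (edgeR adjusted p = 2.77e-07), and -2.29 with it.

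The duct keratins were scarce in healthy liver. Krt7 ranged from 0.237 to 3.15 CPM in the 7 chow mice (median 0.978) and from 2.47 to 14 CPM in vehicle (median 7.89). Its log2 difference was -2.44 ± 0.51 (edgeR adjusted p = 7.27e-05) without mouse 8 and -2.02 with it. Chow mouse 8 held 5.17 CPM of Krt7, within the vehicle range. Krt19 ranged from 0.832 to 4.21 CPM in the 7 chow mice (median 1.30) and from 3.27 to 16.8 CPM in vehicle (median 11.6). For both keratins the highest chow mouse overlapped the lowest vehicle mice. For Krt19 the log2 difference was -2.24 ± 0.52 (edgeR adjusted p = 2.97e-04), but with mouse 8 in the fit it turned to 1.15 (edgeR adjusted p = 0.14).

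Sox9 ranged from 4.50 to 6.67 CPM in all 8 chow mice and from 6.11 to 19.3 CPM in vehicle, with 7 of 8 vehicle mice above every chow mouse. Chow mouse 8 was at 4.92 CPM, within the range of its group. The log2 difference was -1.09 ± 0.33 without that mouse (edgeR adjusted p = 0.00398) and -1.11 with it. Sox9 and Krt23 were therefore not high in the library that carried the gut-type transcripts.

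Among the surface proteins, Epcam ranged from 1.18 to 4.13 CPM in the 7 chow mice and from 6.27 to 29.2 CPM in vehicle, with no overlap. Its log2 difference was -2.55 ± 0.53 (edgeR adjusted p = 5.65e-05) without mouse 8 and -0.17 (adjusted p = 0.831) with it. Cd24a ranged from 1.66 to 4.74 CPM in the 7 chow mice and from 8.38 to 36.3 CPM in vehicle, again with no overlap. Its log2 difference was -2.85 ± 0.47 (edgeR adjusted p = 1.30e-06) without mouse 8 and -2.08 with it. Without mouse 8, the mice of both groups did not overlap for 4 members (Krt8, Krt23, Epcam and Cd24a), all lower in chow. By the same count, 12% of all genes tested had every one of these chow mice below every vehicle mouse and 7.39% had every one above, 19.4% in all.

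These are whole-liver values, in which fewer cells of a type and less RNA per cell cannot be told apart. The p-values set each difference against the spread between mice within groups, estimated for each gene over all 7 groups in 1 fit. Each mouse has a number in the labels. These numbers fall into 4 runs set apart by gaps, and the runs were taken here as number series, although no label names them and a smaller gap within the third was not split. Within the 3 series that hold all groups each of the 8 members was lower in chow than in vehicle, for example by -0.70, -1.22 and -1.08 for Krt8 and by -1.48, -1.07 and -2.95 for Krt19 (log2). These values rest on few mice. The first series held 2 chow and 2 vehicle mice, the second 1 chow and 3 vehicle mice, and the third 3 chow and 2 vehicle mice. Summed hepatocyte markers moved the other way, with a median of 162820 CPM in chow and 72072 CPM in vehicle, and stellate cell markers were at 121 CPM against 775 CPM. Their part in the result was not tested.

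The next comparisons asked whether treatment changed the members in DIO-MASH mice. High-dose zalfermin and the combination lowered Krt8 and Krt18, and the combination also lowered Krt23. No member was called higher under any treatment, and Krt7, Krt19, Sox9, Epcam and Cd24a were called in none of the 5 treated groups. The median log2 difference from vehicle over the 8 members was -0.32 in zalfermin low, -0.46 in zalfermin high, -0.25 in semaglutide low, -0.56 in semaglutide high and -0.55 in the combination. Over all genes tested the median lay between -0.03 and 0 in every one. All 5 comparisons share the same 8 vehicle mice.

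Under high-dose zalfermin 2 of 8 members passed, both lower, where 17.2% of all genes passed (8.68% lower). Krt8 was at 277, 222, 269, 154, 255, 193, 228 and 215 CPM in mice 1 to 8, all below the lowest vehicle mouse (380 CPM). It fell by 53.6% (log2 -1.11 ± 0.19, edgeR adjusted p = 2.66e-05). Krt18 was at 255, 189, 221, 112, 193, 166, 193 and 183 CPM, again all below the lowest vehicle mouse (279 CPM). It fell by 52.9% (log2 -1.09 ± 0.20, edgeR adjusted p = 8.25e-05). Both calls held in each of the 56 fits that left out 1 mouse. Within the 3 number series the log2 differences were -0.94, -1.37 and -0.81 for Krt8 and -0.74, -1.49 and -0.63 for Krt18.

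Krt23 under high-dose zalfermin spread from 2.31 to 10.4 CPM around a median of 4.18, overlapping vehicle. Its log2 difference was -0.40 ± 0.31 (edgeR adjusted p = 0.394), with a 95% interval from -1.002 to 0.195.

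The combination gave 3 calls of 8, all lower, where 20.9% of all genes passed (10.9% lower). Krt8 was at 168, 267, 244, 357, 218, 452, 216 and 340 CPM in mice 1 to 8, so that only mouse 6 reached the vehicle range. It fell by 42.2% (log2 -0.79 ± 0.19, edgeR adjusted p = 0.00203). Krt18 was at 165, 294, 193, 262, 167, 483, 225 and 237 CPM. Mouse 6 stood above the rest and mouse 2 also reached the vehicle range. Krt18 fell by 36.9% (log2 -0.66 ± 0.20, edgeR adjusted p = 0.0133). Without mouse 6 its log2 difference was -0.86 (edgeR adjusted p = 0.00108). Within the number series the log2 differences were -0.96, -0.70 and -0.52 for Krt8 and -0.73, -0.60 and -0.34 for Krt18.

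Krt23 was at 2.41, 6.24, 3.24, 2.85, 3.52, 3.39, 5.70 and 3.62 CPM in the combination, and 6 of these 8 mice were below the lowest vehicle mouse (4.56 CPM). It fell by 44.5% (log2 -0.85 ± 0.31, edgeR adjusted p = 0.0425). This call was lost in 12 of the 56 fits that left out 1 mouse, namely vehicle mouse 2, 4, 5, 6, 7 or 8 or combination mouse 1, 3, 4, 5, 6 or 8 (edgeR adjusted p from 0.0513 to 0.0895). Within the number series its log2 differences were -0.70, -0.86 and -0.69.

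High-dose semaglutide gave 0 calls of 8 in edgeR and in DESeq2, with 2 members at an unadjusted p under 0.05, where 2.43% of all genes passed. Krt8 ranged from 201 to 397 CPM around a median of 346, with overlap with vehicle in its highest mice. Its log2 difference was -0.58 ± 0.19 (edgeR adjusted p = 0.0851). It passed without chow mouse 8 (edgeR adjusted p = 0.0484), where 2.80% of all genes passed. Krt18 ranged from 160 to 392.0 CPM around a median of 294, with a log2 difference of -0.55 ± 0.20 (edgeR adjusted p = 0.138).

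The low doses alone gave 0 calls of 8 in edgeR and in DESeq2, with 0 members at an unadjusted p under 0.05. With zalfermin low, 0.468% of all genes passed. With semaglutide low it was 0% in edgeR, where 1222 genes had an unadjusted p under 0.05, and DESeq2 called 32. Krt8 had medians of 388 CPM under zalfermin low and 429 CPM under semaglutide low. The 95% interval of its log2 difference ran from -0.61 to 0.14 and from -0.56 to 0.18, respectively. Krt23 reached 16.3 CPM under zalfermin low, the highest value of any mouse, with a median of 11.2 CPM and a log2 difference of 0.52 ± 0.30 (edgeR adjusted p = 0.522).

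Ordered by group median, Krt8 stood at 479 CPM in vehicle, 429 in semaglutide low, 388 in zalfermin low, 346 in semaglutide high, 255 in the combination, 229 in chow and 225 in zalfermin high. Neighbours in this order overlapped. With all mice Krt18 had the same order, from 407 CPM in vehicle to 222 CPM in chow and 191 CPM in zalfermin high. Without chow mouse 8 the chow median of Krt8 was 218 CPM, below zalfermin high. That of Krt18 was 214 CPM, still above zalfermin high.

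**Figure D2:**
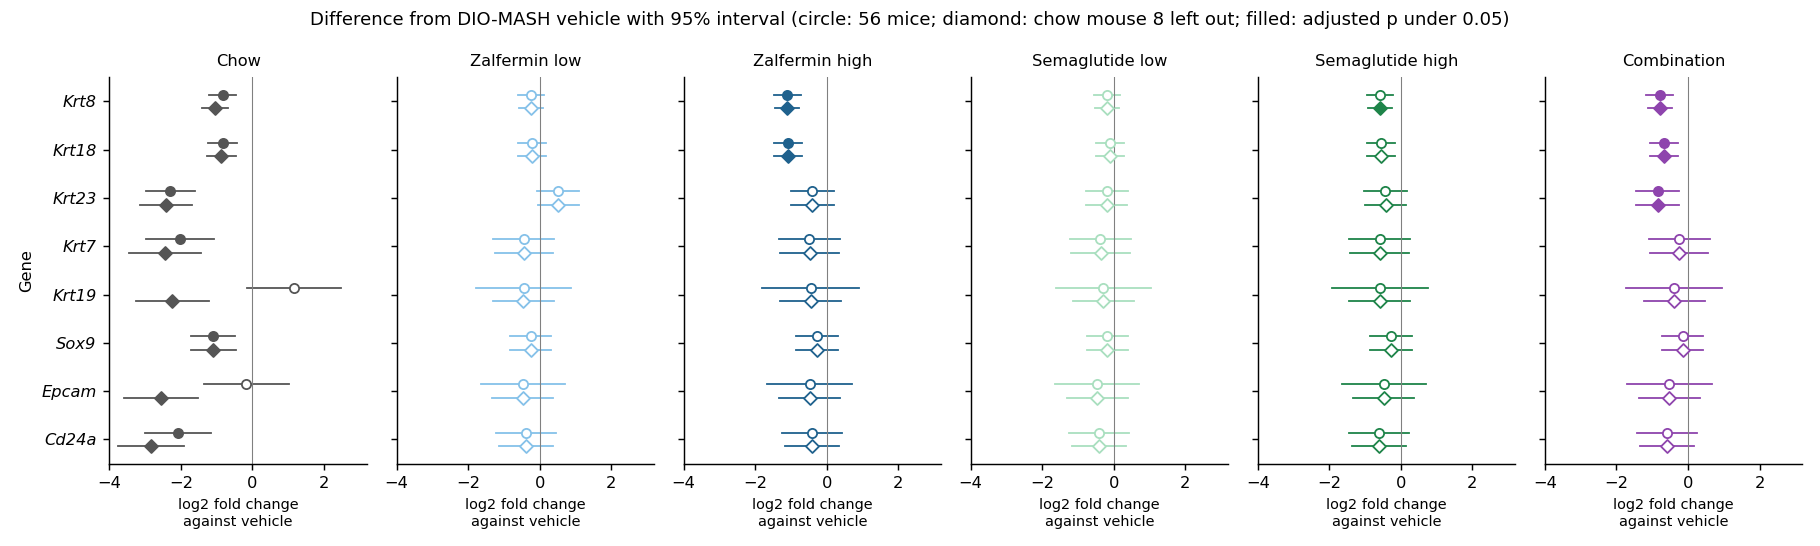
Log2 fold change of each gene against DIO-MASH vehicle for chow and the 5 treatments, with 95% intervals as lines. Circles are from all 56 mice, diamonds leave out chow mouse 8, and filled symbols have an adjusted p under 0.05. Krt8 and Krt18 are filled below 0 in zalfermin high (-1.11 and -1.09) and the combination (-0.79 and -0.66), Krt23 in the combination (-0.85), and the other 5 genes are filled only in chow, where Krt19 and Epcam are filled as diamonds alone.

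The duct and progenitor genes overlapped the vehicle mice in every treated group. In the 40 treated mice Krt7 ranged from 0.886 to 12.7 CPM, with group medians of 4.13 to 6.06 against 7.89 in vehicle. Krt19 ranged from 0.709 to 16.4 CPM, with group medians of 5.10 to 7.57 against 11.6. Sox9 ranged from 3.28 to 22.1 CPM, with group medians of 8.15 to 10.5 against 12.1. Epcam ranged from 0.607 to 23.4 CPM, with group medians of 9.26 to 10.8 against 14.7. Cd24a ranged from 1.52 to 34.1 CPM, with group medians of 12.1 to 17.3 against 23.9. For each of these 5 genes the lowest treated mouse lay below every vehicle mouse. This sets 40 treated mice against 8 vehicle mice, for genes that vary together, so no conclusion is drawn from it.

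All 25 fitted log2 differences of these 5 genes under 5 treatments were below 0, from -0.61 to -0.15, and none was called (edgeR adjusted p from 0.343 to 0.925). The 25 values are not independent, since they share the vehicle mice and the genes vary together. Without chow mouse 8 the lower bounds of their 95% intervals ran down to -1.45 and the upper bounds lay between 0.14 and 0.57, so that a fall of more than 1 log2 unit was not excluded for the noisiest of them.

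Dose and combination were compared directly. Between the zalfermin doses, 2 of 8 members differed, both lower at the high dose, where 1.84% of all genes passed. Krt8 differed by -0.87 ± 0.19 (log2, edgeR adjusted p = 0.00787), with no overlap between the mice of both doses. Krt18 differed by -0.86 ± 0.20 (edgeR adjusted p = 0.0129), and without zalfermin low mouse 4 the adjusted p was 0.0504. Krt23 differed by -0.92 (edgeR adjusted p = 0.110). Between the semaglutide doses 0 of 8 members were called by edgeR or DESeq2, with 2 at an unadjusted p under 0.05, where 0% of all genes passed and 549 had an unadjusted p under 0.05.

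Against zalfermin low, the combination had lower Krt23, with a log2 difference of -1.37 ± 0.31 (edgeR adjusted p = 0.00367), the only call of 8 where 6.62% of all genes passed. Krt8 differed by -0.55 (edgeR adjusted p = 0.0651), and passed without chow mouse 8 (adjusted p = 0.0366), where 7.20% of all genes passed. Against semaglutide low, 0 of 8 members were called by edgeR and 1 by DESeq2, with 3 at an unadjusted p under 0.05, where 4.21% of all genes passed. Krt8 differed by -0.60 (edgeR adjusted p = 0.0585). It passed without chow mouse 8 (adjusted p = 0.0298), where 4.59% of all genes passed. Without semaglutide low mouse 6, Krt8 (-0.68, edgeR adjusted p = 0.0171) and Krt18 (-0.65, edgeR adjusted p = 0.0315) both passed, where 8.35% of all genes passed. Combination mouse 6 had the highest level of both keratins in its group. Without it, Krt8 and Krt18 passed against zalfermin low (edgeR adjusted p = 0.0234 and 0.0369) and against semaglutide low (edgeR adjusted p = 0.0217 and 0.0173). Krt8 also passed in both comparisons without chow mouse 6 or combination mouse 4, and against zalfermin low without zalfermin low mouse 1, with edgeR adjusted p from 0.0377 to 0.0494. For Krt23, the difference between the zalfermin doses passed without zalfermin high mouse 3 or zalfermin low mouse 1 (edgeR adjusted p = 0.0427 and 0.0458).

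Whether the combination differed from the sum of both low doses was tested as an interaction on the log2 scale. No member was called by edgeR or DESeq2, 1 member had an unadjusted p under 0.05, and 0.0142% of all genes (2 genes) passed. That member was Krt23, with an interaction of -1.17 ± 0.43 (edgeR adjusted p = 0.521).

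Treated mice were also compared with chow. Krt8 and Krt18 were close to the chow level under high-dose zalfermin, while the duct and progenitor genes remained above it. Without chow mouse 8, 6 of 8 members were higher in zalfermin high than in chow, where 36.8% of all genes passed and 20.9% were higher. Cd24a was higher by 2.43, Epcam by 2.08, Krt23 by 2.02, Krt7 by 1.96, Krt19 by 1.79 and Sox9 by 0.83 on the log2 scale. Krt8 differed by -0.06 (95% interval -0.41 to 0.29, edgeR adjusted p = 0.817) and Krt18 by -0.21 (95% interval -0.62 to 0.19, edgeR adjusted p = 0.436). The combination gave the same 6 genes, where 32.6% of all genes passed, with Krt8 at 0.26 and Krt18 at 0.21 (edgeR adjusted p = 0.271 and 0.470). High-dose semaglutide gave 7, the same 6 and Krt8 at 0.47 (edgeR adjusted p = 0.0315), where 40.3% of all genes passed.

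With chow mouse 8 in the fit, these counts were 4 of 8 for zalfermin high (37.2% of all genes), 5 for semaglutide high (39.9%) and 4 for the combination (32.4%). Cd24a, Krt23, Krt7 and Sox9 were higher in all 3 groups. Epcam was called in none, and Krt19 was called lower in semaglutide high, a direction that turned without that mouse (log2 1.65). That Krt19 call was also lost without semaglutide high mouse 1, 2, 3, 4 or 6 (edgeR adjusted p from 0.0529 to 0.0648). In these fits Sox9 lost its call without zalfermin high mouse 2, 7 or 8 and without semaglutide high mouse 5 or 7 (edgeR adjusted p from 0.0521 to 0.104), and Krt7 without semaglutide high mouse 7 (edgeR adjusted p = 0.0595).

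The mouse-to-mouse spread within groups was used to ask which members vary together. Over the 48 AMLN-fed mice, with each group's mean log2 CPM subtracted, 28 pairs were correlated, and p-values came from 100000 permutations within groups with adjustment over the 28 pairs. In all, 16 pairs passed, all positive, by Pearson r and by Spearman rho. Both genes of a pair are read from the same library of the same piece of liver and share its depth.

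Krt8 and Krt18 had r = 0.91 and rho = 0.88 (adjusted permutation p = 2.55e-05 for both). The p-value before adjustment was the smallest that the permutations can give. The 10 pairs among Krt7, Krt19, Sox9, Epcam and Cd24a had r from 0.87 to 0.95 and rho from 0.86 to 0.95, all at that same adjusted p. Without the 2 mice farthest from the median of the first gene, r was 0.89 for Krt8 with Krt18 and 0.85 to 0.94 for the 10 pairs. Krt23 correlated with these 5 genes at r from 0.40 to 0.50 (adjusted permutation p from 9.91e-04 to 0.0111).

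Between both sets there was little shared variation. The 10 pairs of Krt8 or Krt18 with the 5 duct and progenitor genes had r from 0.03 to 0.26 and rho from -0.11 to 0.19, and none passed (adjusted permutation p from 0.161 to 0.834). Krt23 had r = 0.23 with Krt8 and r = 0.29 with Krt18, and neither passed (adjusted permutation p = 0.173 and 0.0751). Vehicle mouse 4 held the highest level of its group for 5 members, zalfermin high mouse 6 the lowest for 5 and combination mouse 3 the lowest for 5.

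**Figure D3:**
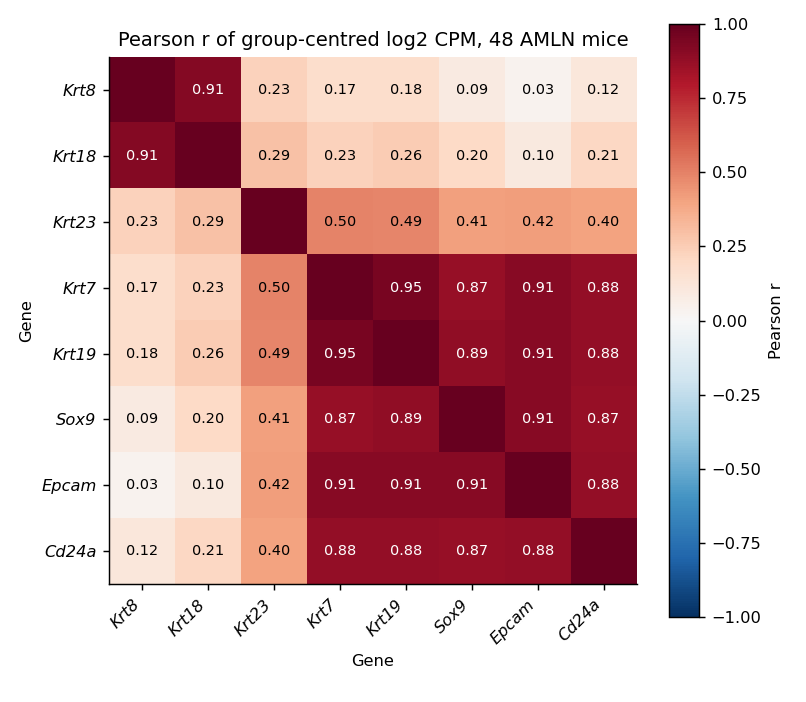
Pearson r between the members over the 48 AMLN-fed mice after subtracting group means of log2 CPM; both axes list the 8 genes and the colour scale runs from -1 to 1. A block of 5 genes (Krt7, Krt19, Sox9, Epcam, Cd24a) has r from 0.87 to 0.95, Krt8 and Krt18 have 0.91, and values between both blocks lie between 0.03 and 0.26.

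**Figure D4:**
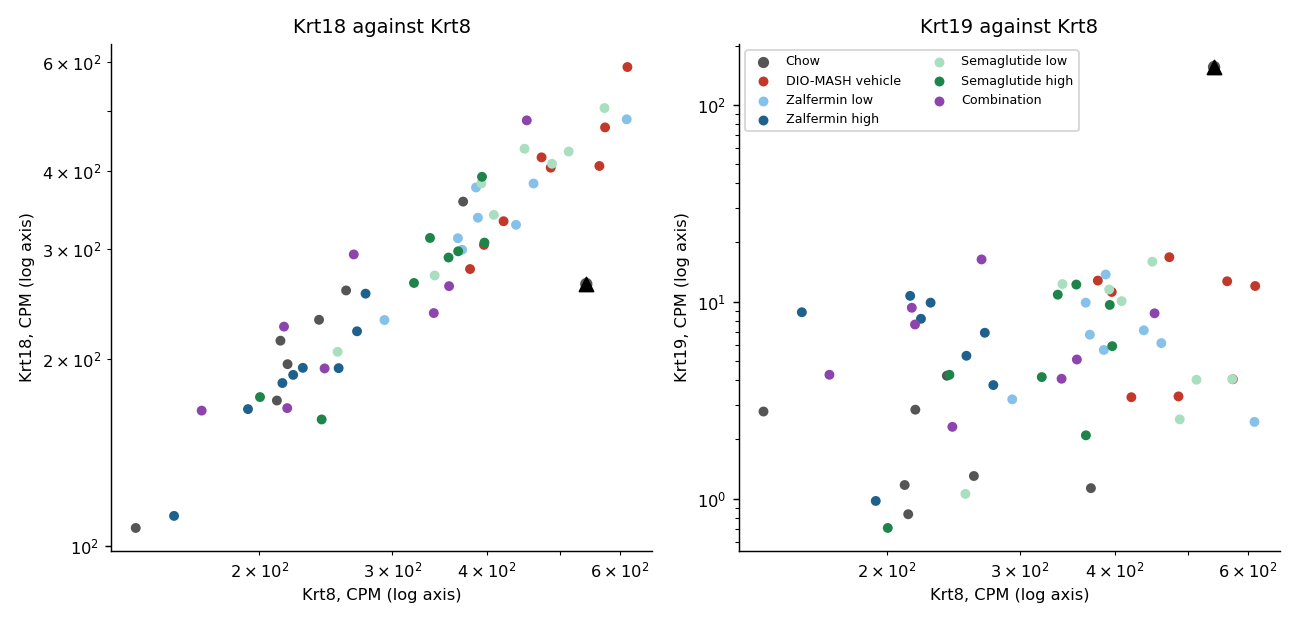
Krt18 against Krt8 and Krt19 against Krt8 in CPM (log axes), 1 point per mouse coloured by group, with a triangle for chow mouse 8. Krt18 follows Krt8 over the whole range except in chow mouse 8 (542 and 264 CPM), whereas Krt19 spreads from 0.709 to 16.8 CPM in the other mice and is at 155.6 CPM in chow mouse 8.

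The genes most like each member over the same 48 mice are given as a description. For Krt8 they were Krt18 (r = 0.91), Tgm2 (0.79), a transglutaminase that cross-links keratins, and Tpm1 (0.77), a tropomyosin of actin filaments. For Krt18 they were Krt8, Tpm1 (0.82) and Tgm2 (0.82). For Krt7 they were Krt19 (0.95), Cygb (0.94), a globin of stellate cells and fibroblasts, and Bicc1 (0.94), an RNA-binding protein of duct epithelium. For Krt19 they included Bicc1 (0.95) and Krt7 (0.95). For Sox9 they were Plet1 (0.93), Scara3 (0.93) and Bicc1 (0.92). For Epcam they were the tetraspanin Tspan8 (0.96), ccdc198 (0.95) and the epithelial transcription factor Ehf (0.95). For Cd24a they were Scara3 (0.95), the adhesion receptor Adgrg1 (0.94) and Plet1 (0.94). Krt23 had no such close match, with Sh2d4a (0.69), Inpp5e (0.69) and Arrdc1 (0.67).

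Related genes were read from lists chosen with earlier results of these data known, so their counts describe the lists and do not test them. Over all genes tested, 25.8% were higher and 30.5% lower in chow without chow mouse 8. Under high-dose zalfermin 8.54% were higher and 8.68% lower, and under the combination 10% and 10.9%. Of 19 tested genes of the biliary epithelium other than the members, 18 were lower in chow than in vehicle without chow mouse 8. The water channel Aqp1 was not called. Of the 18, 1 had no read in those chow mice, so it entered the test only through the AMLN-fed groups. The median log2 difference was -2.41. The secreted phosphoprotein Spp1 differed by -3.33, Bicc1 by -2.64 and the ciliary gene Dcdc2a by -2.24. With mouse 8 in the fit, 11 were called lower, where 28.9% of all genes were, and the median was -1.11. Under high-dose zalfermin 2 of the 19 were lower, where 8.68% of all genes were. These were the cadherin Cdh1 (-0.79 ± 0.29) and Wfdc2 (-0.60 ± 0.21), and the median of the list was -0.41. Under the combination 1 was lower, where 10.9% of all genes were. It was Spp1 (-1.37 ± 0.39, edgeR adjusted p = 0.00855), and the median of the list was -0.33. No gene of this list was called under the other 3 treatments, where 0% (semaglutide low), 2.43% (semaglutide high) and 0.468% (zalfermin low) of all genes passed. Their summed level ranged from 421 to 956 CPM in vehicle, 250 to 677 CPM in zalfermin high and 270 to 558 CPM in the combination.

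Of 15 genes of ductular fate signalling (Notch, TWEAK, YAP and TGF-beta pathways), 11 were lower in chow and 1 higher (Yap1, 0.20), without chow mouse 8. Over all genes 30.5% were lower and 25.8% higher. Ankrd1 (-2.81) and Ccn2 (-1.36), targets of YAP, the TGF-beta ligand Tgfb2 (-2.70) and the Notch target Hey1 (-2.39) were among those lower in chow. Under high-dose zalfermin 3 were lower, where 8.68% of all genes were. These were Tnfrsf12a, the receptor for TWEAK (-1.11 ± 0.25), the Notch target Heyl (-1.01 ± 0.26) and Ccn1, a YAP target (-0.58 ± 0.19). Under the combination 2 were lower, Heyl (-1.24 ± 0.26) and Ccn2 (-0.74 ± 0.25), where 10.9% of all genes were lower. Tnfrsf12a was not called in chow (-0.56, edgeR adjusted p = 0.0529).

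Of 11 genes on a list of keratin anchoring, 3 were higher and 4 lower in chow without mouse 8. That list also holds the filament genes Vim and Lmna, which are not anchors of keratin. Over all genes 25.8% were higher and 30.5% lower, so these counts lie near the shares over all genes. Those called included the desmosomal cadherin Dsg2 (0.41), the intermediate filament gene Vim of mesenchymal cells (-1.91) and the nuclear lamin gene Lmna (-0.43). The others were Plec (0.32) and Dsc2 (0.38), both higher in chow, and Evpl (-1.18) and Pkp3 (-1.15), both lower. Under high-dose zalfermin 3 of the 11 were lower, where 8.68% of all genes were. These were Lmna (-0.63 ± 0.10), desmoplakin (Dsp, -0.50 ± 0.11) and plakophilin 2 (Pkp2, -0.37 ± 0.09). Under the combination Lmna was lower (-0.34 ± 0.10) and Dsg2 higher (0.29 ± 0.10), where 10.9% of all genes were lower and 10% higher.

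In chow without mouse 8, 25.8% of all genes were higher and 30.5% lower. Of 10 genes tied to keratin aggregates and their clearance, 2 were higher and 3 lower there, near those shares. The 3 were the small heat shock genes Hspb1 (-1.54) and Cryab (-1.37), and Tgm2 (-1.53), and the higher genes were Nbr1 (0.49) and Keap1 (0.18). High-dose zalfermin lowered Hspb1 (-0.78 ± 0.25) and Tgm2 (-0.75 ± 0.16) and raised the autophagy receptor Nbr1 (0.31 ± 0.10). Over all genes, 8.68% were lower and 8.54% higher under it, and 10.9% and 10% under the combination. The combination lowered the chaperone genes Hspa1b (-1.33 ± 0.33) and Hspa1a (-1.19 ± 0.39), and Tgm2 (-0.58 ± 0.16), and raised Keap1 (0.16), a sensor of oxidative stress. Hspa1a and Hspa1b are near-identical copies, and reads could be split between them. Semaglutide at either dose and zalfermin at the low dose gave 0 calls in edgeR for the signalling, anchoring and aggregate lists. Of all genes, 0% passed under semaglutide low, 2.43% under semaglutide high and 0.468% under zalfermin low.

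Of 13 further keratins in the table, 5 were tested. Without chow mouse 8, Krt17 and Krt20 were called lower in chow, where neither had a read in the 7 mice. Both could therefore enter the test only through the AMLN-fed groups, which fixed this direction in advance. Their vehicle levels were low, with means of 0.332 and 0.218 CPM, and the lowest vehicle mouse held 0 CPM of Krt20. Set against a floor of 3 reads over those 7 mice, Krt17 was at least 7.73-fold lower and Krt20 at least 5.07-fold lower than the vehicle mean. With mouse 8 in the fit, Krt20 was higher in chow (7.15 ± 1.18). None of the 5 was called under treatment, where from 0% (semaglutide low) to 20.9% (combination) of all genes passed.

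**Figure D5:**
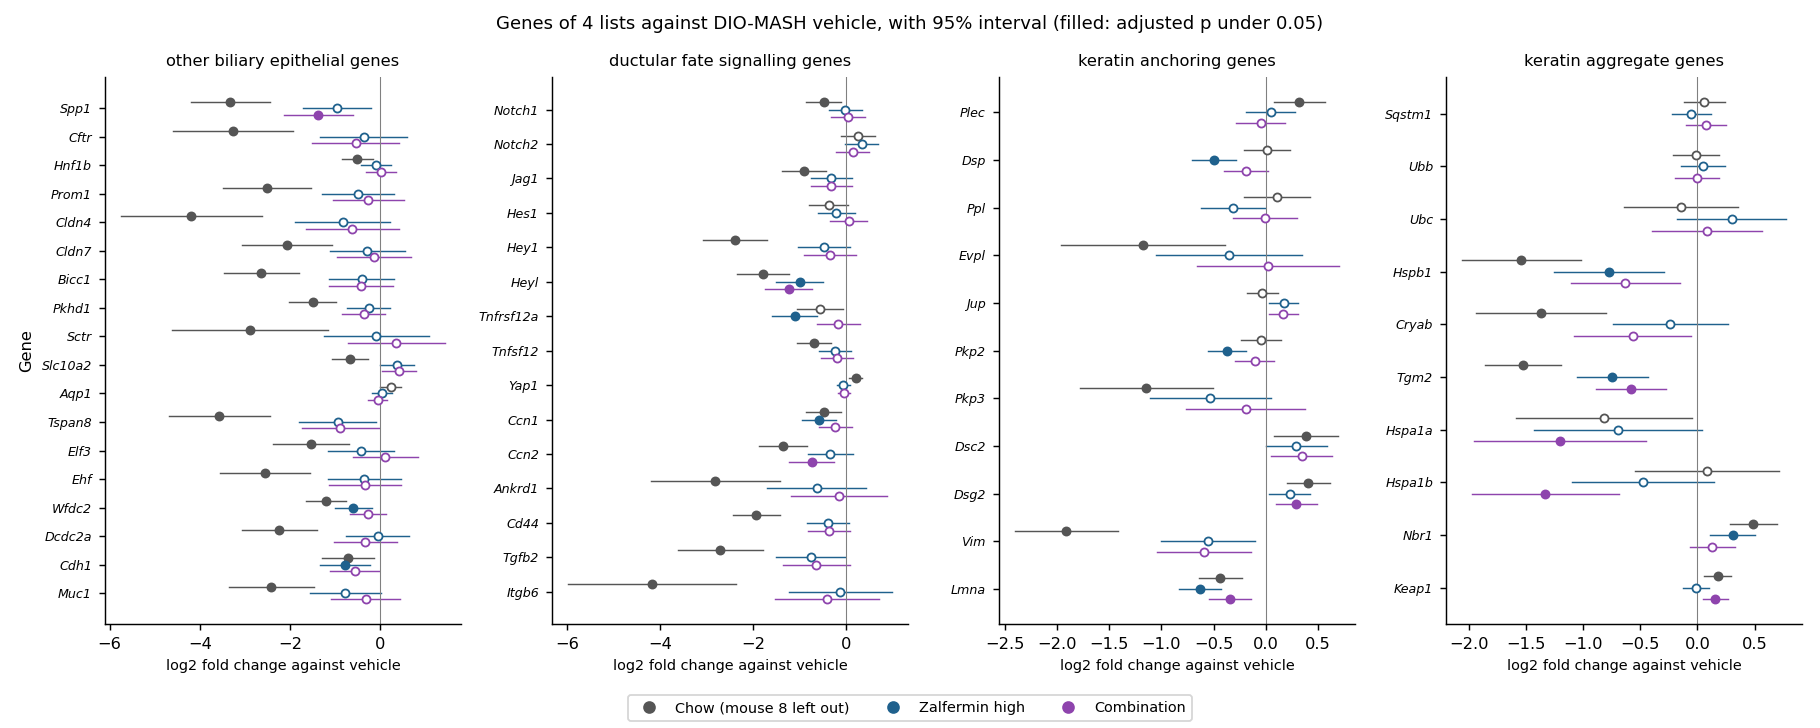
Log2 fold change against DIO-MASH vehicle, with 95% intervals, for the tested genes of 4 lists that had reads in the chow mice (18, 15, 11 and 10 genes) in chow without mouse 8, zalfermin high and the combination; filled points have an adjusted p under 0.05. The biliary genes are filled far below 0 in chow (17 of 18) but mostly open under treatment (2 and 1 of 18 filled).

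Some markers of other cells also differed from vehicle, not always in the groups where members were called. Over all genes tested, 8.54% were higher and 8.68% lower under high-dose zalfermin, and 10% and 10.9% under the combination. All 7 hepatocyte markers were higher under high-dose zalfermin and 6 of 7 under the combination. Their sum had medians of 105760 and 116840 CPM, respectively, against 72072 CPM in vehicle. Krt8 and Krt18, which hepatocytes make, were lower in these groups. Of 7 stellate cell markers, 2 were lower under high-dose zalfermin, Col1a1 (-2.12 ± 0.38) and Col1a2 (-1.70 ± 0.33), and 5 under the combination. Of 6 macrophage markers, Clec4f was higher under high-dose zalfermin (0.93) and the combination (0.94), and Itgax was lower (-1.001 and -1.05, respectively), as was Trem2 under high-dose zalfermin (-0.88). All 4 B cell markers tested were lower under high-dose semaglutide, where 1% of all genes were lower. Their summed medians were low, at 4.99 CPM in vehicle, 2.91 CPM in semaglutide high and 3.34 CPM in chow. Vehicle mouse 1 held 44.9 CPM, and how far the B cell calls here and in chow rest on it was not tested. In chow without mouse 8, 4 of 4 B cell markers and 2 of 6 mesothelial markers were lower, where 30.5% of all genes were. There 3 of 4 neutrophil markers and 1 of 6 erythroid markers were higher, where 25.8% of all genes were. The summed neutrophil markers were low, with medians of 2.58 CPM in chow and 2.01 CPM in vehicle. Chow mouse 2 held 38.6 CPM, and how far these calls rest on that mouse was not tested. The part of cell makeup in the keratin differences was not tested.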

How the data were processed

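The authors deposited a table of raw read counts per gene, with 1 column for each of the 56 mice and 0 columns of other samples. Libraries were made with a stranded TruSeq mRNA kit on the NeoPrep system and sequenced on a NextSeq 500. The study's methods name STAR v2.5.2a and GRCm38, and the submitters' processing notes name GRCm38, Trim Galore 0.6.4 and Salmon 1.9.0. The counting program is not given in the sources used here. Groups were taken from the labels, and mice are numbered in accession order.

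A gene was tested if at least 3 mice held at least 5 of its reads, and 4352 genes had no read. All 7 groups were fitted in 1 edgeR 4.0.16 quasi-likelihood model (R 4.3.3, TMM), with a two-sided F test and Benjamini-Hochberg adjustment over all genes tested at 0.05. SE is the log2 fold change divided by the square root of F. Log2 CPM used a prior count of 2. The study used DESeq2, which was run as an alternative (DESeq2 1.42.0, Wald test), beside other size factors, other filters, the number series (runs of mouse numbers, inferred from gaps) as a covariate, fits of the compared groups alone and each mouse left out. Leaving out chow mouse 8 with semaglutide low mouse 6, or chow mouse 8 under DESeq2, was chosen after seeing the data. The fits were tested on simulated data. The named genes are all 8 members, at most 3 called genes of each list with the largest change and a mean of at least 1 CPM, and the 3 genes most like each member, of which 1 is not reported here; Aqp1, Ccn2, Evpl, Keap1, Krt17, Krt20, Nbr1, Pkp3, Plec, Dsc2, Tnfrsf12a and Yap1 in chow and Keap1 in the combination were named after their values were seen. Gkn1, Gkn2 and Muc5ac in chow mouse 8 were also named after their values were seen. Members and lists were chosen with earlier results of these data known. Intervals from counts were not used; depth was 5228187 to 20885786 reads. Figures were drawn with matplotlib 3.10.9.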

Additional observations from a re-analysis of the deposited data

Results flagged for a closer look

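In 5 of the 56 sets of 8 mice (8 genes in 7 groups), the highest mouse lay farther from the next than Dixon's 95% limit allows. Chance flags about 1 in 20 such sets. Of these, 3 were the same library, chow mouse 8, which held 155.56 CPM of Krt19 against 4.21 CPM in the next chow mouse, 90.089 CPM of Epcam against 4.13 CPM, and 21.292 CPM of Cd24a against 4.74 CPM. The same library held high levels of some of the stomach, gut and gallbladder markers, whose part in these 3 values was not tested. Krt18 was at 482.97 CPM in combination mouse 6, with the next mouse at 294 CPM. Sox9 was at 22.057 CPM in zalfermin low mouse 6, with the next mouse at 10.99 CPM.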

How the results depend on the processing

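Of 162 values of the 27 called member differences under the 6 alternatives that kept all mice, 159 kept their direction and their side of the threshold, 2 lost the call and 1 turned. Another 10 values of 8 uncalled differences passed, 7 in the same direction and 3 (Epcam against chow) with the direction turned. The count of pairs that vary together was 16 or 17 under each alternative. With the number series as a covariate, where the last series held only chow mice 7 and 8 and vehicle mouse 8, differences from chow turned for Epcam (1.67 in zalfermin high, 1.60 in semaglutide high, 1.70 in the combination) and for Krt19 in semaglutide high (1.13). With chow mouse 8 and semaglutide low mouse 6 left out together, Epcam was 2.08, 2.07 and 2.03 and Krt19 1.80, 1.65 and 1.86 above chow in zalfermin high, semaglutide high and the combination, and Krt19 was -2.24 in chow against vehicle. With chow mouse 8 left out under DESeq2 these values were 2.04, 2.06 and 2.03, 1.76, 1.62 and 1.85, and -2.24. Over the fits that left out 1 mouse, Epcam ranged from -0.49 to 2.08 (zalfermin high), -0.52 to 2.07 (semaglutide high) and -0.53 to 2.03 (combination) against chow. Krt19 ranged from -1.79 to 1.79, -1.96 to 1.65 and -1.83 to 1.86, respectively, and from -2.24 to 1.34 in chow against vehicle. Chow mouse 8 gave the end of each range that differs in sign.

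Called members in the combination against semaglutide low were 1 with 10 or more reads in 8 mice, 1 with DESeq2, 1 with the number series, 1 without chow mouse 8 under DESeq2 and 2 without both mice; leaving out 1 mouse gave 0 to 2. Against zalfermin low they were 2 with the number series, 2 without both mice and 2 without chow mouse 8 under DESeq2, and 1 to 3 with 1 mouse left out. In semaglutide high against vehicle they were 1 when only both groups were fitted, 1 without both mice and 1 without chow mouse 8 under DESeq2, and 0 to 1 with 1 mouse left out. In semaglutide high against chow, leaving out 1 mouse gave 3 to 7 calls. The causes were not tested. Low counts limit Krt23 and Krt7 in chow most, where single mice held as few as 2 reads of Krt7 and 3 reads of Krt23.

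No paired analysis was possible because the labels carry no replicate numbers that groups share. The number series, which groups do share, entered as the covariate above and in the values within series.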
